A study of Homo sapiens with 44 samples.

Results

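The neurotrophic receptors and the ALK kinases were followed in neuroblastoma cells in which the Jumonji domain oxygenase JMJD6 was knocked down. Members were chosen by gene symbol, and all 9 had a probe cluster of their own among the 21448 clusters of the array: NTRK2, NTRK3, NGFR, RET, GFRA1, GFRA2, GFRA3, ALK and LTK. Stable lines carried a doxycycline (DOX) inducible shRNA and received DOX at 2 µg/ml or vehicle control for 40 h. CHP134 cells, a MYCN-amplified neuroblastoma line, carried control shRNA (6 arrays with vehicle control and 6 with DOX), JMJD6 shRNA-1 (4 and 4) or JMJD6 shRNA-2 (4 and 4). SK-N-AS cells, a neuroblastoma line without MYCN amplification, carried control shRNA or JMJD6 shRNA-2 (3 arrays in each of 4 groups). Every line, the controls included, was transduced with a lentivirus that also encodes GFP, and was sorted for high GFP, so no untransduced cells were among the samples. Nothing in the sources names separate clones, and arrays of a group may be repeats of one line, so that p-values measure the spread between repeats.

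Neurotrophins act on neurons of the sympathetic lineage, from which neuroblastoma arises, through receptor kinases of the NTRK family and through the shared receptor NGFR. The GDNF family of ligands acts through RET, a receptor kinase that needs a membrane-anchored partner: GFRA1 binds GDNF, GFRA2 binds neurturin and GFRA3 binds artemin. ALK and its relative LTK are receptor kinases for the ALKAL ligands, and mutated or amplified ALK is a known driver of neuroblastoma. These receptors signal through shared adaptors to the ERK kinase cascade, whose target genes include its own feedback inhibitors.

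Values are log2 levels after robust multiarray average (RMA) normalization. A level is read against the same probe cluster in other arrays, not against another gene. JMJD6 itself lay between 6.45 and 7.16 in the 8 CHP134 arrays with an induced JMJD6 shRNA and between 7.61 and 8.16 in the other 20. In SK-N-AS it lay between 6.44 and 6.84 in the 3 induced arrays and between 7.14 and 7.48 in the other 9, so the targeted gene went with the labels in both lines. A cluster was called above background where it exceeded the 95th percentile of 612 negative control probe sets of its array, a low bar that between 72.3% and 81.9% of all clusters passed. Of the 7 adrenergic neuroblastoma markers with a cluster, 6 were above background on all 28 CHP134 arrays and 7 on all 12 SK-N-AS arrays. Of 10 mesenchymal markers, 9 had a higher median in SK-N-AS than in CHP134, and the exception was TWIST1 (8.78 to 9.60 in CHP134 and 7.73 to 8.22 in SK-N-AS). The mean level over the 10 ran from 6.02 to 6.43 in CHP134 and from 8.04 to 8.27 in SK-N-AS. Of 3 Schwann cell markers, SOX10 was above background on every array, ERBB3 on none, and S100B on 1 of the 40. Of 6 leukocyte and endothelial markers, 4 were above background on every CHP134 array and all 6 on every SK-N-AS array. PTPRC was below background on every CHP134 array and lay between 8.97 and 10.27 in SK-N-AS, CD68 ran from 5.24 to 5.97 and from 8.39 to 9.19, and CD3E was near alike (medians 5.08 and 4.99). Their part in the SK-N-AS results was not tested.

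The members were not present alike in the cells. In CHP134, 8 of the 9 were above background on all 28 arrays. The exception was NTRK2, the receptor of BDNF, which passed on 5 of 28 arrays (lowest 3.08, median 3.60, highest 4.55). In SK-N-AS, 5 members passed on all 12 arrays and NTRK2 passed on none (2.51 to 3.29). The GDNF receptor components stood at different levels in the 2 lines. GFRA1 lay from 9.37 to 10.20 in CHP134 and from 3.41 to 4.68 in SK-N-AS, where it passed background on 9 of 12 arrays. RET went the other way, from 5.99 to 6.85 in CHP134 and from 9.22 to 10.19 in SK-N-AS. GFRA2 lay from 10.23 to 11.61 in CHP134 and from 6.91 to 8.81 in SK-N-AS. The lines appear to have been normalized apart, so these differences between lines were not tested.

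**Figure D1:**
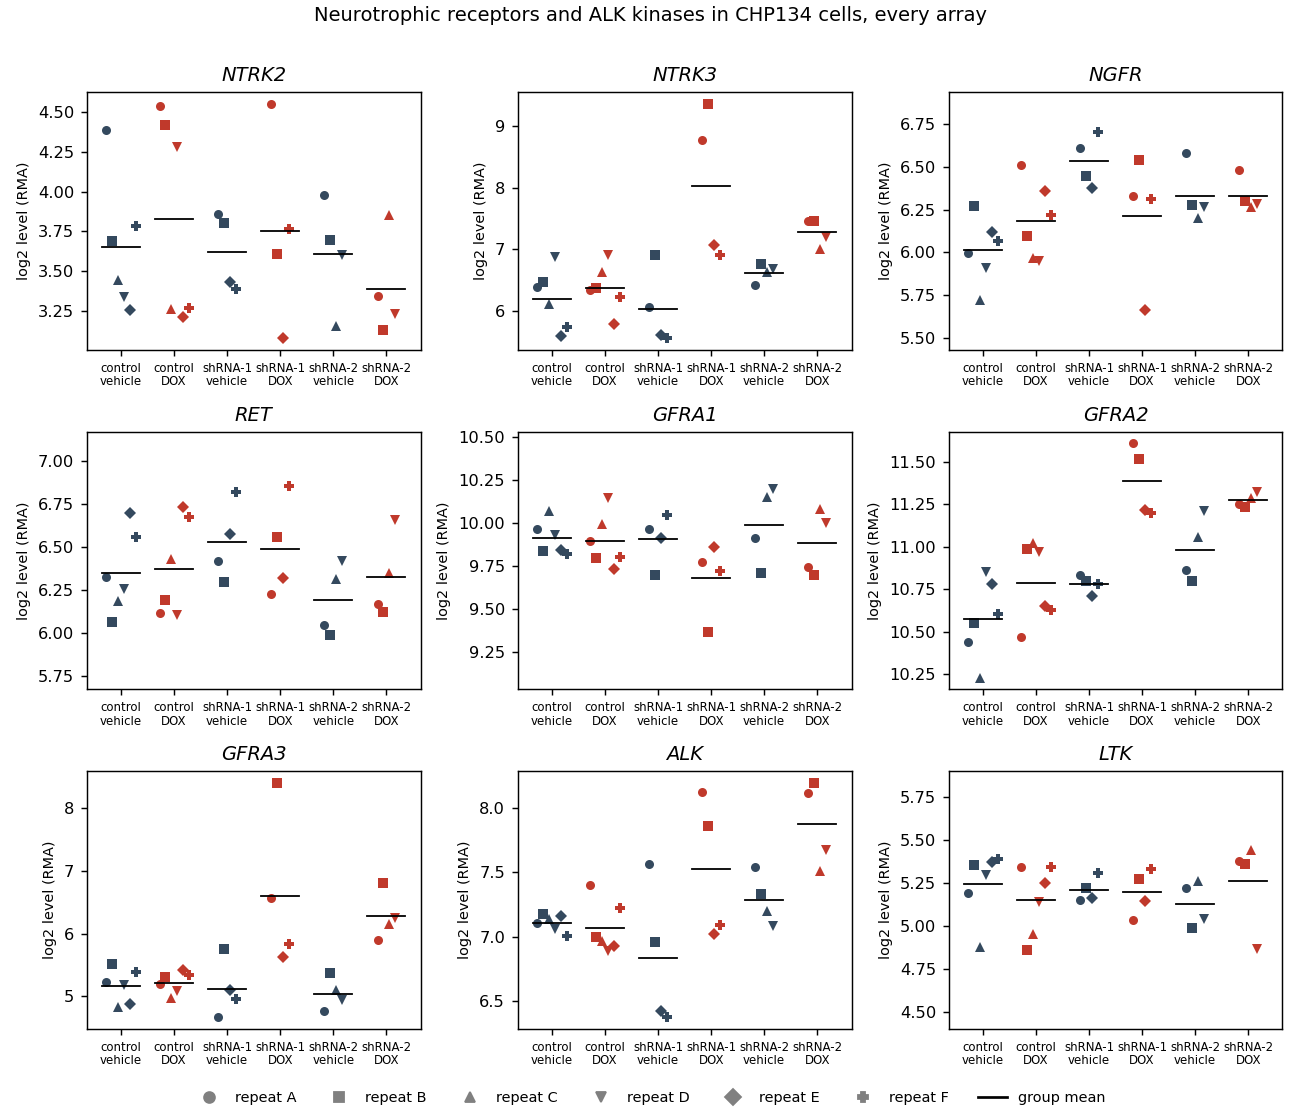
Log2 RMA level (vertical axis) of each of the 9 members on the 28 CHP134 arrays, by shRNA and treatment (horizontal axis). Each symbol is an array, its shape gives the repeat letter, red marks DOX and black lines are group means. NTRK3 is the member in which the 8 arrays with an induced JMJD6 shRNA (6.92 to 9.35) lie above all 20 others (5.56 to 6.91).

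The comparison of most interest asks what JMJD6 knockdown did to these receptors in CHP134. The response was taken as the DOX change in JMJD6 shRNA cells minus the DOX change in control shRNA cells, as the mean of both hairpins. GFRA3, NTRK3 and ALK had the largest responses among the 9 members, at 2.48-fold, 2.20-fold and 1.60-fold. With limma and Benjamini-Hochberg adjustment over all clusters, 0 of 9 members passed an adjusted p of 0.05, against 1.25% of all clusters (268 of 21448). At an unadjusted p under 0.05 there were 3 members (NTRK3, GFRA3 and ALK), against 10.3% of all clusters. The same repeat letter in different groups deviated together, and with the letter as a block these 3 members were called, against 6.18% of all clusters (1326 of 21448). The mesenchymal marker PRRX1 was called too in this blocked fit, lower by 1.48-fold (adjusted p = 0.0437, against 0.277 without the block), as 1 of 10 such markers. The list's median response was 0.0493, its mean level overlapped between induced and uninduced arrays, and its part in the members' responses was not tested. With the pairs of letters that deviated alike as a block the same 3 were called, against 5.61% of all clusters, and GFRA3 was called alone both with array weights (1.56%) and by the methods' rule of a fold change over 1.5 with an adjusted p under 0.2 (2.46%). The other 6 members had responses between -0.33 and 0.24 (log2) and were not called in any of these fits.

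NTRK3 encodes the receptor kinase for neurotrophin-3. With JMJD6 shRNA-1 its levels in repeats A, B, E and F were 6.07, 6.90, 5.62 and 5.56 with vehicle control, and 8.77, 9.35, 7.06 and 6.92 with DOX. With JMJD6 shRNA-2, repeats A to D gave 6.42, 6.77, 6.64 and 6.68 with vehicle control and 7.45, 7.46, 7.01 and 7.20 with DOX. Control shRNA arrays had a lowest level of 5.60, a median of 6.25 and a highest of 6.87 with vehicle control, and 5.80, 6.36 and 6.91 with DOX. The 8 induced arrays were thus all above the other 20, by a narrow margin (6.92 against 6.91). Among all clusters 74 did so, or 0.345%. The mean response was 1.14 (log2, SE 0.41, 95% confidence interval 0.31 to 1.97), with an adjusted p of 0.216 in limma and of 0.00652 once the letter was a block. Leaving out each array in turn, in fits without the block, kept the response between 0.92 and 1.32, and none of these 28 fits called it.

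GFRA3 is the co-receptor through which artemin engages RET. With JMJD6 shRNA-1 its levels in repeats A, B, E and F were 4.67, 5.76, 5.10 and 4.96 with vehicle control, and 6.57, 8.40, 5.62 and 5.83 with DOX. With JMJD6 shRNA-2, repeats A to D gave 4.77, 5.37, 5.10 and 4.95 with vehicle control and 5.91, 6.81, 6.16 and 6.25 with DOX. Control shRNA arrays stayed between 4.83 and 5.51 with vehicle control (median 5.20) and between 4.97 and 5.41 with DOX (median 5.25). Induced shRNA-2 arrays did not overlap any uninduced or control array, whereas the induced shRNA-1 array of repeat E (5.62) lay below the uninduced array of repeat B (5.76). The share of all clusters in which induced shRNA-2 arrays stood apart in this way was not counted. The mean response was 1.31 (SE 0.38, 95% confidence interval 0.54 to 2.08), with an adjusted p of 0.0841 in limma and 0.00945 with the block. The call without the block depended on single arrays: it was gained when the induced shRNA-1 array B, E or F was left out, and the adjusted p over the 28 such fits ran from 0.027 to 0.143. It was also gained with array weights (adjusted p = 0.0239).

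ALK showed a smaller response of like size with both hairpins. With JMJD6 shRNA-1 its levels in repeats A, B, E and F were 7.57, 6.96, 6.42 and 6.37 with vehicle control, and 8.12, 7.86, 7.02 and 7.09 with DOX. With JMJD6 shRNA-2, repeats A to D gave 7.54, 7.33, 7.20 and 7.08 with vehicle control and 8.11, 8.19, 7.51 and 7.67 with DOX. The DOX array was the higher of its pair in 8 of 8 repeats, but induced arrays of repeats E and F overlapped control arrays, which ran from 6.89 to 7.40. In NTRK3, GFRA3 and GFRA2 the DOX array was likewise the higher throughout, and in GFRA1 it was the lower throughout. The share of all clusters with such a count was not taken. The mean response was 0.67 (SE 0.24, 95% confidence interval 0.18 to 1.17), with an adjusted p of 0.225 in limma and 0.0185 with the block.

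The 3 genes lie apart in the genome, on chromosomes 15 (NTRK3), 5 (GFRA3) and 2 (ALK), all on the minus strand. The 250 bases before their RefSeq starts are shown because these members had the largest responses. Sequences and positions are from RefSeq in build GRCh38.p14, written 5′ to 3′ on the gene's strand, with matches to the GC box GGGCGG on either strand in capitals. The tables used here held such an entry for 7 of the 9 members, and where a gene had several the one at the outer end of the gene is shown.
NTRK3 (chr15:88256740-88256989, - strand): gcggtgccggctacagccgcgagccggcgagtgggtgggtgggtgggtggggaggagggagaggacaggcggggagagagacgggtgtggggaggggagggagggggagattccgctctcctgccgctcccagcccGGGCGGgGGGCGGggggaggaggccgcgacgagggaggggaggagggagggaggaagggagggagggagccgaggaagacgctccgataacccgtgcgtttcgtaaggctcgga
GFRA3 (chr5:138274622-138274871, - strand): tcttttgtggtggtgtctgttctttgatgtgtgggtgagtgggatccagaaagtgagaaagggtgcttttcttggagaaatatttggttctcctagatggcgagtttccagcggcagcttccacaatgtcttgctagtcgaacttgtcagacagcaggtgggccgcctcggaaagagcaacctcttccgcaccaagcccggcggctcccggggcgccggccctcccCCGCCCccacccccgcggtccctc
ALK (chr2:29921587-29921836, - strand): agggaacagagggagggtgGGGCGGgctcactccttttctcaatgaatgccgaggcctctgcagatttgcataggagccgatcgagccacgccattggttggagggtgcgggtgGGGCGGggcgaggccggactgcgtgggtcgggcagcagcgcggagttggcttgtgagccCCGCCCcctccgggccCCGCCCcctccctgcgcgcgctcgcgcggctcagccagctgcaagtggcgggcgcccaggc
NTRK3 held 2 GC boxes, GFRA3 held 1 and ALK held 4, in a motif that 42.6% of all 35116 such windows carried at least once. The E-box CACGTG, a sequence bound by Myc proteins, had no match in these 3 windows and a match in 6.34% of all windows. The window of a further RefSeq start of ALK (chr2:29223824-29224073), not shown, held 1 E-box and 0 GC boxes. Matches overlapping another motif were not found, and a match is only a string of letters, not a bound site.

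The hairpins were then taken one at a time, each with the control arrays of the same repeat letters (16 arrays a fit). With JMJD6 shRNA-2, 1 of 9 members was called, GFRA3, which rose 2.43-fold (log2 1.28, SE 0.26, adjusted p = 0.0252 in limma), against 0.779% of all clusters. This call was lost in 8 of the 16 fits that left out an array, those without control vehicle array A, B or D, control DOX array C or D, or shRNA-2 vehicle array A, C or D. Over all 16 the response stayed between 1.10 and 1.41 with adjusted p from 0.0192 to 0.0635. With the repeat letter as a block the GFRA3 call held (adjusted p = 0.00182) and ALK was called too (0.64, SE 0.17, adjusted p = 0.0443), against 4.47% of all clusters, as both were with the pairs of letters as a block (3.49%). GFRA3 was the member called with array weights (1.24%) and by the methods' rule (2.9%). Fitted with all 28 arrays, a fit that adds the shRNA-1 arrays and further control arrays, no member was called, against 1.41% of all clusters (GFRA3 1.19, adjusted p = 0.255).

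With JMJD6 shRNA-1, 0 of 9 members and 0% of all clusters were called in limma, while 4 members had an unadjusted p under 0.05, against 5.21% of all clusters. With the block 0 members and 0.0746% of all clusters were called. NTRK3 had the largest response, at 3.61-fold (log2 1.85, SE 0.63, adjusted p = 0.638), and GFRA3 came next at 2.68-fold (1.42, SE 0.59, adjusted p = 0.876). Without the induced array of repeat B the GFRA3 response was 0.82, and over the other fits that left out an array it reached 1.75. The ALK response was 0.66 (SE 0.37, adjusted p = 0.991). GFRA2, the neurturin co-receptor, had a response of 0.51 (SE 0.19, adjusted p = 0.738). Its levels in repeats A, B, E and F were 10.83, 10.80, 10.71 and 10.78 with vehicle control and 11.61, 11.52, 11.22 and 11.20 with DOX, so that its induced and uninduced shRNA-1 arrays did not overlap. With shRNA-2 the GFRA2 response was -0.05 (SE 0.21), although the 4 induced arrays (11.23 to 11.32) also lay just above the 4 uninduced ones (10.80 to 11.21). The shares of all clusters with such splits of 4 against 4 arrays were not counted. In control shRNA cells GFRA2 went from 10.55 to 10.98 in repeat B and from 10.23 to 11.02 in repeat C with DOX, while in the other 4 repeats it changed by 0.03 (A), 0.12 (D), -0.13 (E) and 0.03 (F). NGFR, the shared neurotrophin receptor, had a shRNA-1 response of -0.50 (SE 0.23, adjusted p = 0.948) and a shRNA-2 response of -0.15 (SE 0.21).

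The test of the difference between hairpins (shRNA-2 minus shRNA-1) called 0 of 9 members and 0.00932% of all clusters in limma, with NTRK3 the single member at an unadjusted p under 0.05, against 5.18% of all clusters. For NTRK3 the difference was -1.33 (SE 0.53, 95% confidence interval -2.42 to -0.24, adjusted p = 0.856). For GFRA3 it was -0.25 (95% confidence interval -1.26 to 0.76) and for ALK -0.11 (-0.76 to 0.54), intervals wide enough to hold a difference of 1 in GFRA3. With the repeat letter as a block the adrenergic marker ISL1 was called in this difference (-0.82, SE 0.17, adjusted p = 0.0387, against 0.353 without the block). Its response was -0.63 with shRNA-2 and 0.09 with shRNA-1. The share of all clusters called in that blocked fit is not given here, and the part of ISL1 in the members' responses was not tested.

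**Figure D2:**
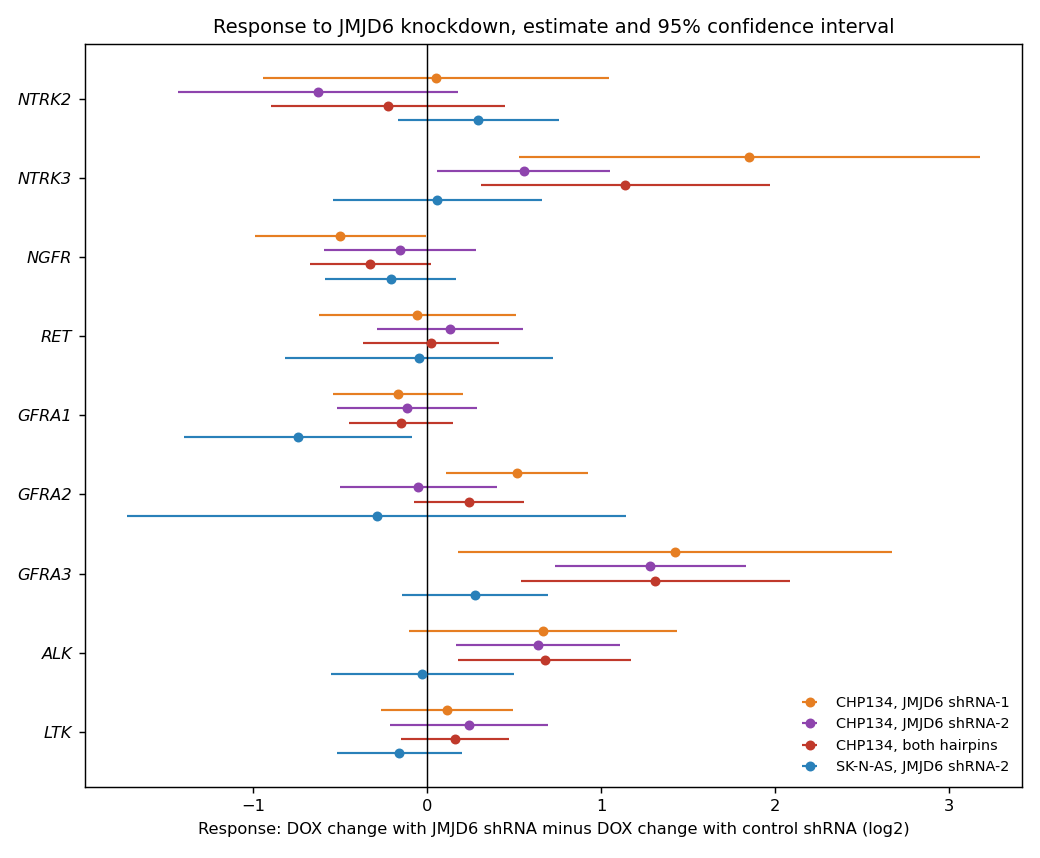
Response to JMJD6 knockdown (horizontal axis, log2) of the 9 members (vertical axis) for each hairpin in CHP134, for both hairpins together and in SK-N-AS. Points are limma estimates without the block and bars are 95% confidence intervals. The interval of GFRA3 with shRNA-2 (0.73 to 1.83) belongs to the single member called.

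Repeats differed in the size of the response. Repeat letters fell into pairs that deviated alike (A and B, C and D, E and F), and the response was recomputed within each. NTRK3 responded by 2.65 in repeats A and B and by 1.05 in E and F with shRNA-1, and by 0.94 in A and B and 0.17 in C and D with shRNA-2. GFRA3 responded by 2.39 and 0.46 with shRNA-1, and by 1.40 and 1.16 with shRNA-2, in the same pairs. ALK responded by 0.67, 0.66, 0.66 and 0.61, nearly the same in each. Single repeats ran from 0.26 to 1.08 in ALK, all above 0. NTRK3 was above 0 in 7 of 8 repeats, with -0.15 in repeat C of shRNA-2, and GFRA3 in 7 of 8, with -0.01 in repeat E of shRNA-1. GFRA2 was above 0 in 4 of 4 repeats of shRNA-1 (0.28 to 0.75) and in 2 of 4 of shRNA-2 (-0.56 to 0.36). The shares of all clusters with such counts were not taken. Both hairpins were set against the same control arrays in repeats A and B, so their responses there are not independent.

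**Figure D3:**
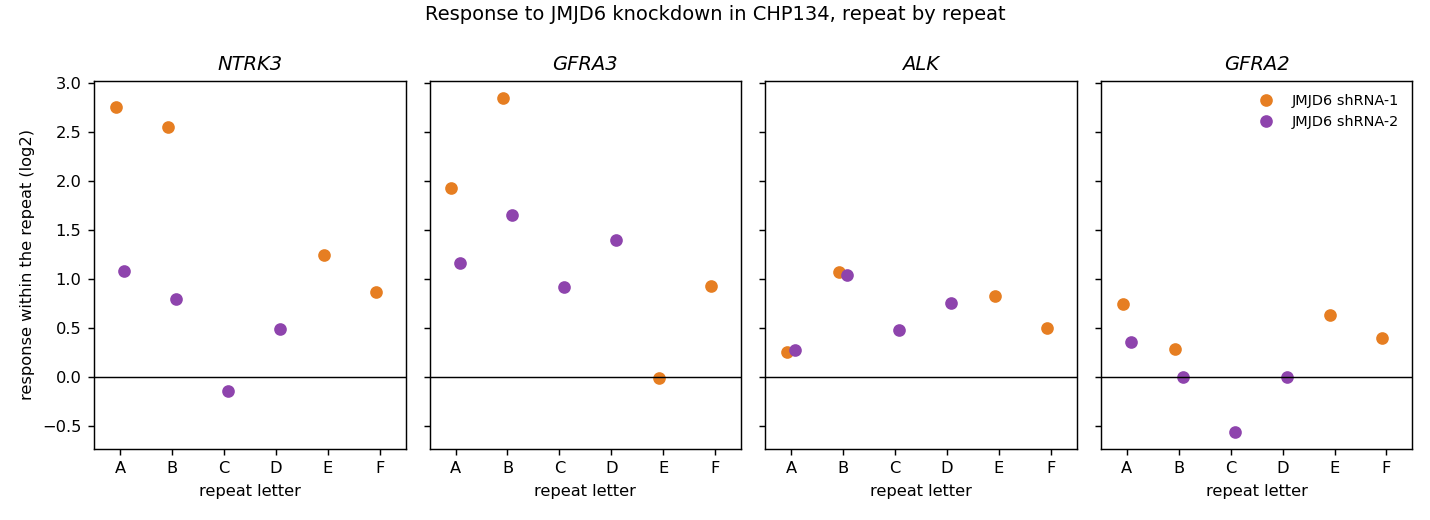
Response within each repeat (vertical axis, log2) of NTRK3, GFRA3, ALK and GFRA2 in CHP134, by repeat letter (horizontal axis) and hairpin (colour). The shRNA-1 responses of NTRK3 and GFRA3 are larger in repeats A and B than in E and F, while ALK lies between 0.26 and 1.08 throughout.

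No member was called after DOX alone. In control shRNA CHP134 cells their changes lay between -0.10 and 0.21 (log2), and 0 of 9 members and 0% of all clusters were called in limma, with 0 members at an unadjusted p under 0.05, against 0.979% of all clusters. GFRA2 had the largest of these changes (0.21, SE 0.12, adjusted p = 1.0). Before induction, the shRNA lines were set against the control line with vehicle control. No member and 0% of all clusters were called for either hairpin in limma, with 1 member (NGFR) at an unadjusted p under 0.05 for shRNA-1, against 5.36% of all clusters, and 2 (NGFR and GFRA2) for shRNA-2, against 2.4%. NGFR was higher by 0.42 (SE 0.17) in the uninduced shRNA-1 line and by 0.35 (SE 0.15) in the uninduced shRNA-2 line, and GFRA2 by 0.46 (SE 0.15) in the latter, with adjusted p between 0.864 and 1.0. NTRK3, GFRA3 and ALK differed by -0.28 to 0.17 between uninduced lines.

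In SK-N-AS cells no member was called in the response to JMJD6 shRNA-2. In limma 0 of 9 members and 0% of all clusters were called, with GFRA1 the single member at an unadjusted p under 0.05, against 5.66% of all clusters. JMJD6 itself had a response of -0.64 there (SE 0.19, adjusted p = 0.536). In CHP134 it was -1.01 with shRNA-2 (SE 0.19, adjusted p = 0.0193 in limma) and -0.65 with shRNA-1 (SE 0.20, adjusted p = 0.59). The part of the size of the JMJD6 fall in the members' responses was not tested. By repeat letter, which did not pair the SK-N-AS arrays, the response of JMJD6 was -1.02, 0.02 and -0.92 in A, B and C. Its DOX change within JMJD6 shRNA-2 was -0.82, -0.32 and -0.81, and within control shRNA 0.20, -0.34 and 0.11. The NTRK3 response was 0.06 (95% confidence interval -0.54 to 0.66), that of GFRA3 0.27 (-0.15 to 0.69) and that of ALK -0.03 (-0.55 to 0.50). NTRK3 lay between 3.59 and 4.54 and GFRA3 between 3.44 and 4.17 on the 12 arrays, near background, and ALK between 4.89 and 5.76. GFRA1, the GDNF co-receptor, had the largest response, -0.74 (SE 0.30, adjusted p = 0.813). Its levels in repeats A, B and C of JMJD6 shRNA-2 were 4.10, 4.18 and 4.68 with vehicle control and 3.61, 3.99 and 3.41 with DOX, and it passed background on 1 of these 3 DOX arrays. The induced arrays were the lower in 3 of 3 repeats, as those of GFRA2 were, and the share of all clusters with such a count was not taken. The GFRA1 signals were at the bottom of the range. RET, whose levels were high in these cells, had a response of -0.05 (SE 0.36).

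**Figure D4:**
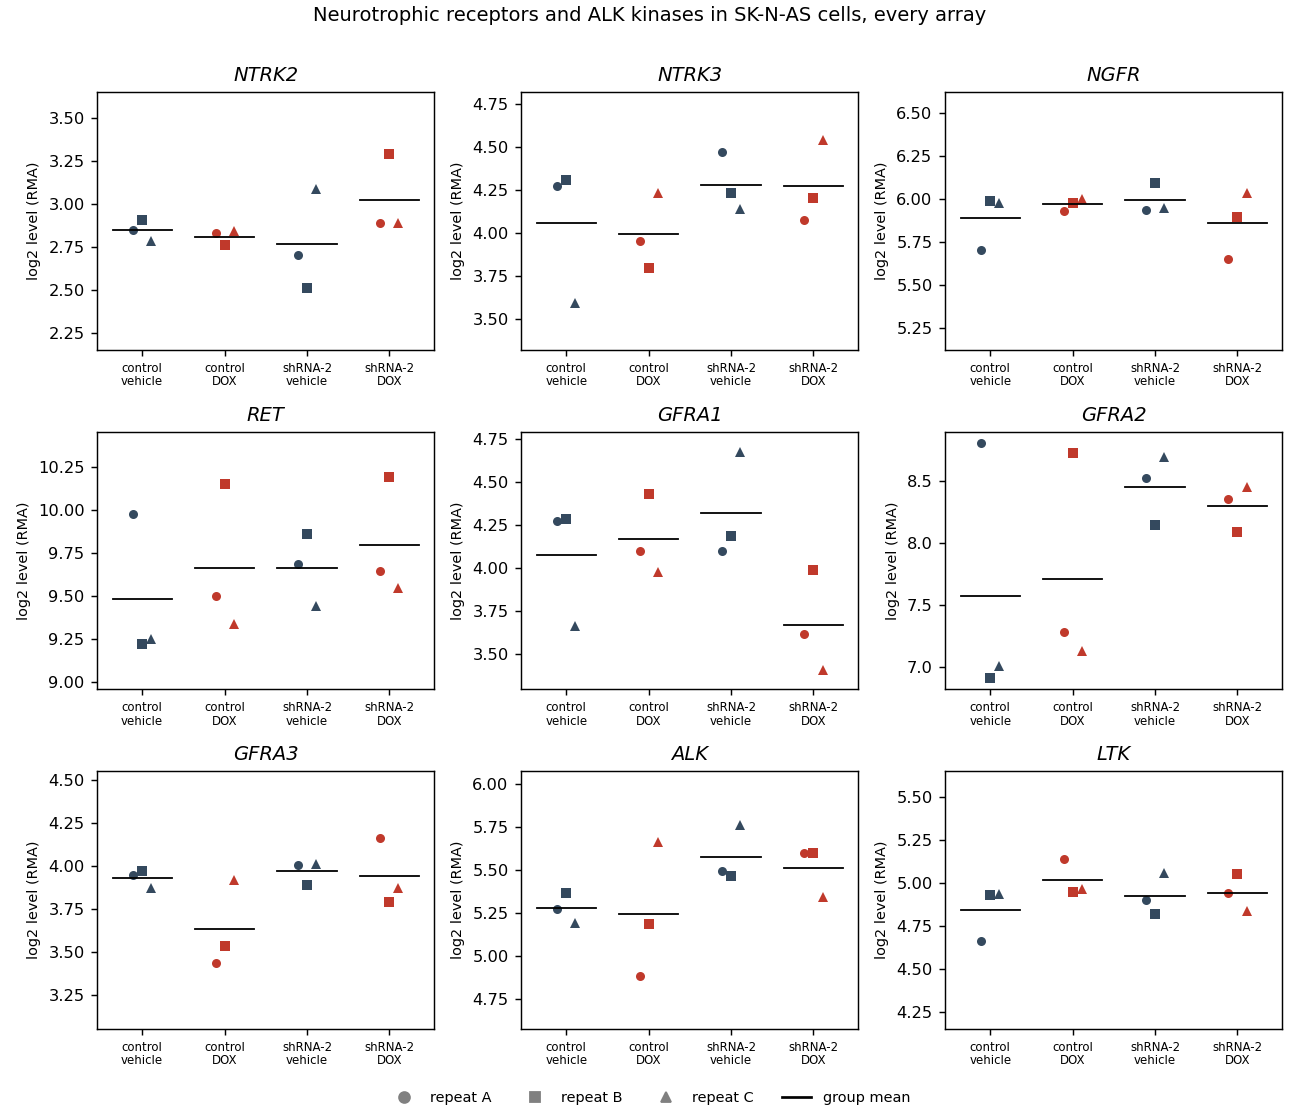
Log2 RMA level (vertical axis) of the 9 members on the 12 SK-N-AS arrays, by shRNA and treatment (horizontal axis). Symbols are arrays, shaped by repeat letter, red for DOX, with group means as black lines. In GFRA2, control vehicle array A (8.81) and control DOX array B (8.73) stand with the shRNA-2 arrays (8.09 to 8.69), away from the other 4 control arrays.

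GFRA2 marked a feature of the SK-N-AS controls. Its levels in repeats A, B and C of control shRNA were 8.81, 6.91 and 7.01 with vehicle control and 7.28, 8.73 and 7.13 with DOX. With JMJD6 shRNA-2 they were 8.52, 8.15 and 8.69 with vehicle control and 8.36, 8.09 and 8.45 with DOX. Control vehicle array A and control DOX array B were thus within reach of the shRNA-2 arrays. In RET they were the highest controls (9.98 and 10.15, against 9.22 to 9.50 in the other 4). The shRNA-2 arrays ran from 9.44 to 10.19 in RET, a range that also held the other control at 9.50. Over all clusters these 2 arrays correlated on average with the other controls at -0.211 and -0.177, against 0.0827 to 0.102 for the rest, as deviations from the line's mean. Their mean correlations with the shRNA-2 arrays were near 0 (0.0198 and -0.00867), against -0.281 to -0.267 for the other controls. In the comparison of uninduced shRNA-2 with control SK-N-AS cells, 0 of 9 members were called with all arrays in limma, against 0.00466% of all clusters, and 0 had an unadjusted p under 0.05, against 7.62% of all clusters. The GFRA2 difference was 0.88 (SE 0.47, adjusted p = 0.662). Without the 2 arrays, a setting chosen after seeing the data, GFRA2 was higher by 1.5 (adjusted p = 0.00239), as 1 of 9 members called against 4.96% of all clusters. The 2 arrays are the controls highest in GFRA2, so leaving them out raises the GFRA2 difference by itself. This call therefore cannot serve as support for a GFRA2 difference. The labels were kept as given. The count of members called for the SK-N-AS response was 0 without the 2 arrays too. DOX in control SK-N-AS cells called 0 of 9 members and 0% of all clusters, with GFRA3 the single member at an unadjusted p under 0.05, against 3.19% of all clusters.

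The other genes of the pathways were taken as lists in CHP134, and the median response of the co-receptors was no lower than that of the members. In the mean response the median over the 9 members was 0.158 (6 above 0), against 0.00217 over all clusters, of which 50.4% were above 0. Of 12 listed ligands, 9 had a cluster, and their median was -0.0168 with 4 above 0 and none called. Of these 9 clusters, 6 were above background on every CHP134 array and 2 on none. Among them were artemin (ARTN, the GFRA3 ligand, 0.07), neurturin (NRTN, -0.02), ALKAL2 (-0.10), midkine (MDK, -0.16) and pleiotrophin (PTN, 0.19). The co-receptor list had a median of 0.17, with 6 of 8 above 0 and none called. With the block, KIDINS220, a membrane scaffold of neurotrophin receptors (0.63, adjusted p = 0.0205), and NCAM1, an adhesion molecule that also binds GDNF (0.47, adjusted p = 0.0326), were called, against 6.18% of all clusters.

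Among 21 adaptors and 19 ERK target genes, 1 of each was called in the mean response without the block, against 1.25% of all clusters. GAB1, a docking protein that carries receptor signals to SHP2 and PI3 kinase, fell by 0.95 (log2, SE 0.20, adjusted p = 0.0118), and EGR1, an immediate early transcription factor, rose 2.18-fold (1.12, SE 0.24, adjusted p = 0.0115). EGR1 lay between 6.01 and 6.82 in induced shRNA-1 arrays and between 6.74 and 7.51 in induced shRNA-2 arrays, above the 5.09 to 6.26 of the uninduced shRNA arrays except for part of the shRNA-1 range, and control arrays lay between 5.14 and 5.86. GAB1 lay between 7.19 and 7.34 and between 6.80 and 7.71 in the induced arrays, below the 7.75 to 8.71 of the uninduced ones. Control arrays lay between 7.83 and 8.51. All 8 induced arrays were below the 20 others in 103 of 21448 clusters. With shRNA-2 alone both were called (GAB1 -1.0, adjusted p = 0.0496, EGR1 1.43, adjusted p = 0.0275), and with shRNA-1 alone neither was (-0.89, adjusted p = 0.607, and 0.93, adjusted p = 0.628). The ERK targets as a list had a median of 0.113 with 12 of 19 above 0, and 4 of the 19 were above background on no CHP134 array. In the mean response with the block the adaptors DOK6 (0.53, adjusted p = 0.0119) and FRS3 (0.34, adjusted p = 0.0469), which link receptor kinases to the Ras pathway, were called as well, and no further ERK target was. In the shRNA-2 response with the block DOK4, an adaptor of the same family as DOK6, fell by 0.97 (adjusted p = 0.0258), and SPRED2, an inhibitor of the Ras and ERK cascade, rose by 0.49 (adjusted p = 0.0406).

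**Figure D5:**
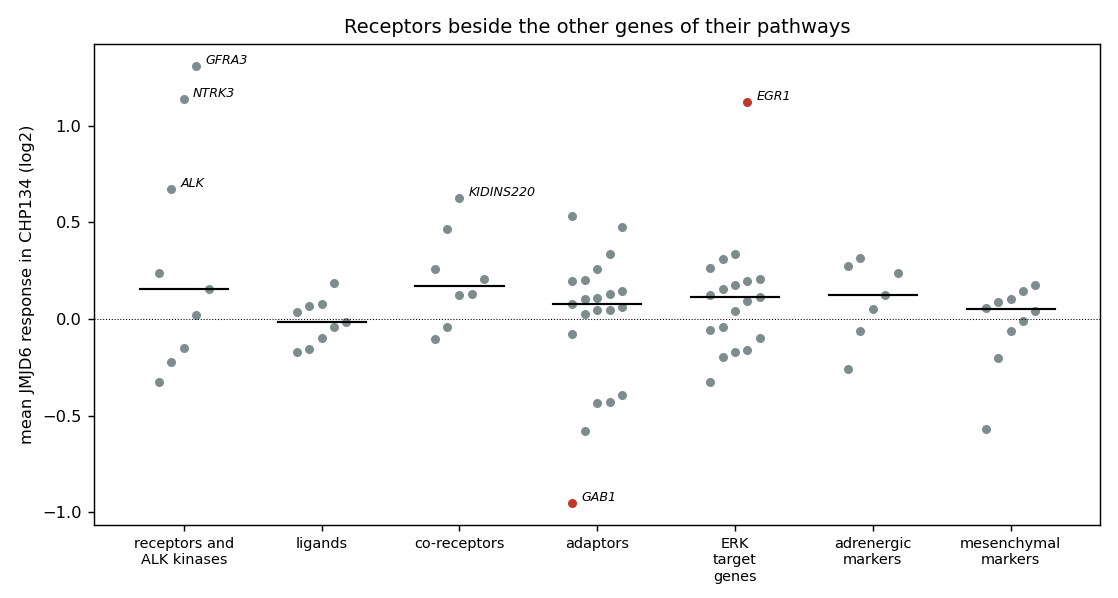
Mean response to JMJD6 knockdown in CHP134 (vertical axis, log2) of each measured gene of the lists (horizontal axis), without the block. Red points were called, black lines are medians and genes with a response above 0.6 in size are named. GFRA3, NTRK3 and ALK stand above the other receptors, with EGR1 and GAB1 the called genes.

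The patterns of NTRK3, GFRA3 and ALK, the members with the widest range of group means in CHP134 (1.99, 1.56 and 1.04), were set beside those of all named genes. Likeness was Pearson's r over the 28 arrays after each repeat letter's mean was subtracted, given as a description only, since the points share arrays and the induced groups. The genes most like NTRK3 were SLC6A2, the noradrenaline transporter (r = 0.926), EPB41L4B (0.925) and GALNT2 (0.925). SLC6A2 was also most like GFRA3 (0.923), followed by NALF1 (0.922) and VEGFD (0.920). NCAM1 was most like ALK (0.924), followed by POLR2J4 (0.911) and MARK4 (0.902). Among the members themselves NTRK3 and GFRA3 were the closest pair of those 3 (r = 0.895), with 0.706 for GFRA3 and ALK and 0.647 for NTRK3 and ALK. GFRA2 ran with them, at 0.804 with NTRK3, 0.704 with GFRA3 and 0.622 with ALK. GFRA1 ran against them, with r between -0.723 and -0.594.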

How the data were processed

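Gene expression was measured with Affymetrix Clariom S Human arrays. Per the study's methods, the authors normalized the probe intensities with RMA, and the values they deposited are log2 levels per probe set, one table for both lines. Array medians ran from 6.09 to 6.16 in CHP134 and from 6.01 to 6.06 in SK-N-AS, so the lines appear to have been normalized apart. Of 44 deposited columns, 4 were copies of other arrays (largest difference 0) and 40 distinct arrays were used. Control probe sets (5741 of 27189) were left out of the tests, and 17709 of the 21448 remaining clusters had 1 gene symbol in the platform annotation. Groups and repeat letters came from sample titles, except that the first SK-N-AS array of each group has no letter there and was called A. The series text gives the letters of the 2 hairpins the other way round.

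Interaction contrasts were fitted in limma 3.58.1 (R 4.3.3), 2-sided, with adjustment over all 21448 clusters at 0.05, in each cell line apart. The script was tested on simulated data. In CHP134 the same letter in different groups correlated after group means were removed (r from 0.14 to 0.593, all 54 pairs over 0.1), so the letters pair the arrays and values with the letter as a block stand beside results that it changed. Alternatives were median centring, trend and robust moderation, a filter on dim clusters, the block, the pairs of letters as a block, array weights, the methods' call rule, other sets of arrays and leaving out each array. The 9 members were named throughout. From each list, called genes were named, up to 4 by p, and the likeness rule took 3 genes for each of 3 members. Members and lists were chosen with earlier results of these data known. Arrays give no counts, so their number limits precision.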

Additional observations from a re-analysis of the deposited data

Results flagged for a closer look

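Of 54 combinations of a member and a group of 4 to 6 arrays, 2 held an array far from the others by Dixon's test, where chance flags about 1 in 20. NGFR in induced JMJD6 shRNA-2 CHP134 cells had its highest level in repeat A, 6.48 against 6.30 in the nearest array, a gap that is 0.833 of the group's range. LTK, the ALK relative, had its lowest level in the same group in repeat D, 4.87 against 5.36, or 0.861 of the range. Neither gene was called in any comparison.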

How the results depend on the processing

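NTRK3, GFRA3 and ALK kept a response above 0 under every alternative tried for the CHP134 mean, shRNA-1 and shRNA-2 responses, and the calls changed as follows. In the mean response the count of members called was 0 without a block, 3 with the repeat letter as a block and 3 with the pairs of letters as a block (NTRK3, GFRA3 and ALK, against 1203 clusters in all), 1 with array weights (GFRA3, 334 clusters) and 1 by the methods' call rule (GFRA3, 527 clusters). Leaving out single arrays, in fits without a block, gave 0 to 1. With shRNA-2 the count was 2 with either block (GFRA3 and ALK, 959 and 749 clusters) and 0 with all 28 CHP134 arrays (302 clusters), with 0 to 1 over the fits that left out an array, while array weights called 267 clusters and the methods' rule 622, each with GFRA3 as the 1 member. With repeats A and B only, 0 members and 0 clusters were called in the mean response, in a fit with fewer samples. The SK-N-AS count for uninduced cells was 1 (GFRA2, 1063 clusters) without the 2 control arrays that stand apart, which are also the controls highest in GFRA2. In SK-N-AS the letters did not pair the arrays (4 of 18 same-letter pairs over 0.1), and the replicate block called 0 members there. The block changed no other member's call, and the cause of these shifts was not tested. Counts over all clusters otherwise moved by over 1.5 times for shRNA-1 (0 to 33), the hairpin difference (1 to 70), the SK-N-AS response (0 to 27) and the uninduced SK-N-AS comparison (0 to 7, apart from the 1063 above), and for shRNA-2 they ran from 72 to 193 over the fits that left out an array.

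Small changes that were never called turned sign, 104 times over all settings, with adjusted p no lower than 0.939. With all 28 CHP134 arrays these were NTRK2 with shRNA-1 (-0.050), GFRA2 with shRNA-2 (0.081) and GFRA1 in uninduced shRNA-1 cells (-0.0040). With repeats A and B only, for DOX in control cells, they were NTRK3 (-0.073), RET (-0.042), GFRA3 (-0.12) and ALK (0.059). With array weights they were NTRK3 (0.031) and RET (0.027) in uninduced shRNA-1 and shRNA-2 cells, NTRK3 in the SK-N-AS response (-0.064), and NTRK3 (0.064) and ALK (0.045) for DOX in SK-N-AS. Without the 2 SK-N-AS arrays they were NTRK3 in the response (-0.15), NTRK3 (0.14) and NGFR (-0.018) for DOX, and LTK in uninduced cells (-0.0061).

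Leaving out single arrays gave these ranges across 0. In CHP134 they were RET in the mean response (-0.049 to 0.093). For shRNA-1 they were NTRK2 (-0.22 to 0.28), RET (-0.18 to 0.059) and LTK (-0.00059 to 0.17), and for shRNA-2 GFRA2 (-0.18 to 0.045). For the hairpin difference they were GFRA3 (-0.58 to 0.35) and ALK (-0.35 to 0.090), and for DOX in control cells RET (-0.046 to 0.096), GFRA1 (-0.068 to 0.015) and GFRA3 (-0.020 to 0.12). For uninduced shRNA-1 cells they were NTRK2 (-0.33 to 0.044), NTRK3 (-0.30 to 0.15), GFRA1 (-0.0068 to 0.11) and GFRA3 (-0.35 to 0.017), and for uninduced shRNA-2 cells NTRK2 (-0.23 to 0.12), RET (-0.093 to 0.051), GFRA1 (-0.029 to 0.13) and LTK (-0.15 to 0.0065). In SK-N-AS the response ranges were NTRK3 (-0.077 to 0.29), RET (-0.29 to 0.20), GFRA2 (-0.91 to 0.22) and ALK (-0.21 to 0.18). For DOX they were NTRK3 (-0.30 to 0.061), NGFR (-0.014 to 0.13), RET (-0.066 to 0.43), GFRA1 (-0.11 to 0.20), GFRA2 (-0.37 to 0.75) and ALK (-0.24 to 0.15), and for uninduced cells NTRK2 (-0.24 to 0.049), NTRK3 (-0.0094 to 0.35) and LTK (-0.0061 to 0.14). Signals near background, those of NTRK2 in both lines and of GFRA1, GFRA3 and NTRK3 in SK-N-AS, limit what these arrays can show.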
